A study of Mus musculus with 6 samples.

Results

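The rod photoreceptor signals light through a G protein, transducin, and a cGMP phosphodiesterase, PDE6. The 6 genes described here encode their subunits: Gnat1, Gnb1 and Gngt1 the alpha, beta and gamma subunits of rod transducin, and Pde6a, Pde6b and Pde6g the alpha, beta and gamma subunits of rod PDE6. They were chosen by name as the subunit genes of these complexes, and all 6 are among the 24062 genes of the count table. RNA-seq counts came from whole retinas of rd10 mice and of wild-type (WT) mice at postnatal day 30, both labelled C57Bl6/J in strain, with 3 samples per genotype and 2 frozen retinas in each sample. In rd10 mice Pde6b itself is mutated by a missense change, in every cell, and the rods are known to die in the weeks after birth. A missense change leaves the transcript countable, so the Pde6b count does not check the genotype labels.

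In the dark-adapted rod, cGMP holds a cation channel open. Light, through its receptor, makes the transducin alpha subunit release GDP, bind GTP and leave the beta-gamma pair. The free alpha subunit then binds the inhibitory gamma subunits of PDE6, which frees the catalytic alpha and beta subunits to break down cGMP, and the channel closes. Too little PDE6 activity leaves cGMP high, a state long linked to rod death. Cones use a parallel set of genes: Gnat2, Gnb3 and Gngt2 for transducin, Pde6c for the catalytic PDE6 subunit and Pde6h for the inhibitory one. Gnb1 is made in many cell types besides rods, and Gnb3 is also made in ON bipolar cells, which limits how far either marks a photoreceptor.

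Promoter sequence from RefSeq's GRCm38.p6 table is described for 3 of the 6 genes, Gnb1, Gngt1 and Pde6b, and not for Gnat1, Pde6a or Pde6g. Of these 3, only Gnb1 and Pde6b have a window that ends before the gene start, so their sequences are printed. Their transcripts fell by nearly the same amount in rd10 retinas, while the 250 bases before their starts differ widely. The Gnb1 stretch, chr4:155491111-155491360 on the plus strand, is 69.2% G and C with 26 CpG pairs. The Pde6b stretch, chr5:108388123-108388372 on the plus strand, is 49.6% G and C with 3 CpG pairs. Over all promoters of the table the medians are 52.4% and 6 CpG pairs. Capitals mark a match to a searched motif.
Gnb1 promoter: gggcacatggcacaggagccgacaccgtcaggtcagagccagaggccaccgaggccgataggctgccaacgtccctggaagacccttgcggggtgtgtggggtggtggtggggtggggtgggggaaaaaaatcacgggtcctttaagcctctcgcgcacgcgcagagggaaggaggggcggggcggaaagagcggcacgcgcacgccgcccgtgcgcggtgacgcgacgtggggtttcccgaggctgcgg
Pde6b promoter: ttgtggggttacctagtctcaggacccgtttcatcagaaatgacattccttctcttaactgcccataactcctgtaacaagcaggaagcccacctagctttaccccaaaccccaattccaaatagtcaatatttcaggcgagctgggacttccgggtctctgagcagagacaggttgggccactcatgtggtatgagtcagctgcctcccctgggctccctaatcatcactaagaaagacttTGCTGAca
Motifs were searched on both strands, with no match overlapping another in these windows: TAATCC, a core bound by the photoreceptor factor CRX, found in 6.252% of 32851 promoters; TGCTGA, the half-site of the rod factor NRL, found in 16.08%; and TATAAA, found in 12.37%. The Gnb1 stretch holds none of them as written. The Pde6b stretch holds TGCTGA from 8 to 3 bases before the start. The Gngt1 window, chr6:3993758-3994007 on the plus strand, is 44.0% G and C and holds the reverse complements of TAATCC, from 44 to 39 bases before the RefSeq start, and of TATAAA, from 133 to 128 bases before it. That window runs past the gene start in the authors' deposited table and is not printed. These matches describe letters and not binding.

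Transcripts of all 6 subunit genes fell in rd10 retinas, to between 22.5% and 31.4% of WT. Gnat1, Gnb1, Pde6b and Pde6g were left at 22.5% to 23.5% of WT, and Gngt1 and Pde6a at 30.8% and 31.4%. The log2 fold changes behind these values had SEs of 0.16 to 0.24, and no ratio between members passed its test. Across the 13905 genes tested, 14.4% changed in either direction and 7.32% were lower in rd10 at an adjusted p under 0.05 (edgeR quasi-likelihood test). The 3 rd10 libraries lay below the 3 WT libraries for each of the 6 genes, and the groups did not overlap for 35.7% of all tested genes. Together the 6 genes took 1.195 ± 0.234% of all counts in rd10 and 4.27 ± 0.14% in WT (SD, n = 3 libraries each), a difference of -3.08 ± 0.16 percentage points (SE). The exact two-sided permutation p for that difference was 0.1, the smallest that 3 against 3 libraries allow. When each library's 10 most abundant genes were left out of both sums (a setting chosen after seeing the data), Gnat1 left the sum in all libraries, Gnb1 in the WT libraries only and Pde6a in WT-23 only, and the shares were 0.611 ± 0.128% in rd10 and 1.09 ± 0.29% in WT. The difference was then -0.48 ± 0.18 percentage points (exact two-sided permutation p = 0.2), over sums that did not hold the same genes. In whole retina, fewer rods and less RNA per rod cannot be told apart.

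**Figure D1:**
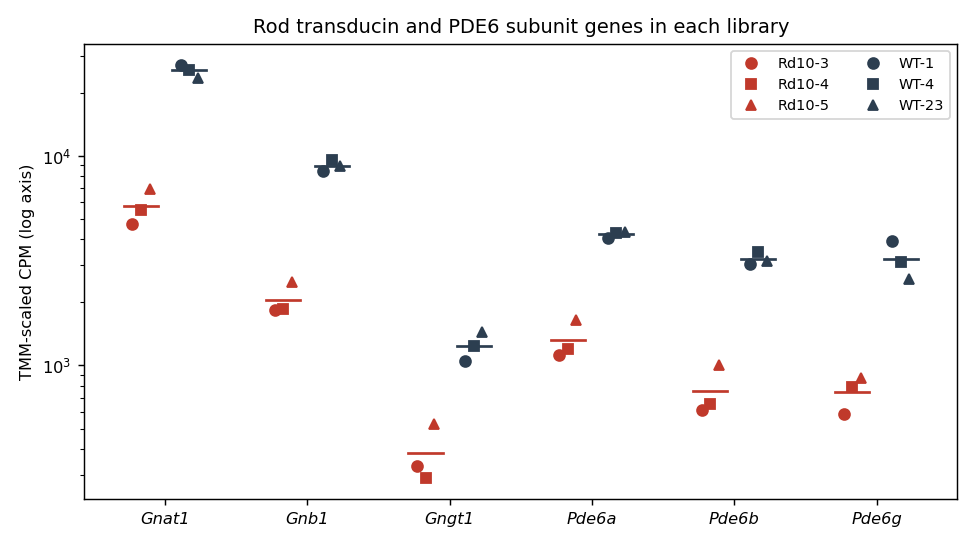
TMM-scaled CPM (log axis) of each subunit gene in each library, rd10 left and WT right, with a bar at the group mean. For every gene the 3 rd10 points lie below the 3 WT points, and Rd10-5 is the highest rd10 library.

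Gnat1 encodes the transducin alpha subunit, the GTP-binding switch. It had 4716, 5534 and 6954 CPM in the rd10 libraries Rd10-3, Rd10-4 and Rd10-5, against 27222, 25739 and 23637 CPM in the WT libraries WT-1, WT-4 and WT-23. CPM here divide each count by the library total after TMM scaling. Every WT library held over 3 times the Gnat1 of any rd10 library. The log2 fold change, rd10 over WT, was -2.15 ± 0.17 (SE; edgeR, adjusted p = 0.000454). Gnat1 remained among the most abundant transcripts, ranking 4 in rd10 and 2 in WT by mean CPM among all genes of the table. The authors' deposited table places the gene on the minus strand of chromosome 9, from 107674474 to 107679712 (mm10).

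Gnb1 encodes the beta subunit, which holds the inactive alpha subunit at the membrane together with gamma. Its rd10 libraries had 1836, 1850 and 2501 CPM, against 8426, 9543 and 8964 CPM in WT, in the same library order. The log2 fold change was -2.12 ± 0.16 (adjusted p = 0.000423). Although Gnb1 is not a rod-only gene, the log2 ratio of Gnb1 to Gnat1 inside each library differed between the groups by only 0.04 ± 0.11 (SE). In rank it stood at 19 in rd10 and 3 in WT. Gnb1 lies on the plus strand of chromosome 4, from 155491364 to 155559269 in the authors' deposited table.

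Gngt1 encodes the farnesylated gamma subunit of rod transducin. It had 332, 290 and 526 CPM in rd10, against 1052, 1232 and 1447 CPM in WT. The groups stayed apart, but relative to its mean Gngt1 varied more than any other subunit in rd10, and more than all but Pde6g in WT, with an SD of 126 CPM around a mean of 382 in rd10 and of 198 around 1244 in WT. The log2 fold change was -1.70 ± 0.24 (adjusted p = 0.00298). The gene lies on the plus strand of chromosome 6, from 3993797 to 3997436 in the authors' deposited table.

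Pde6a encodes the catalytic alpha subunit of PDE6. Its rd10 libraries had 1127, 1199 and 1656 CPM, against 4042, 4306 and 4351 CPM in WT. The WT libraries were close together, with an SD of 167 CPM, and the highest rd10 library stayed far below the lowest of them. The log2 fold change of -1.67 ± 0.16 (adjusted p = 0.000802) was the smallest in size of the 6.

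Pde6b encodes the catalytic beta subunit and is the gene that carries the rd10 change. It had 612, 655 and 1005 CPM in rd10, against 3046, 3475 and 3165 CPM in WT. The mutated transcript was thus still present in every rd10 library, with between 7694 and 13220 counts. The log2 fold change was -2.09 ± 0.20 (adjusted p = 0.000726). In the authors' deposited table Pde6b lies on the plus strand of chromosome 5, from 108388391 to 108432397.

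Pde6g encodes the inhibitory gamma subunit, which transducin displaces. It had 589, 789 and 871 CPM in rd10, against 3922, 3111 and 2585 CPM in WT. WT-1 was the highest WT library for Pde6g and the lowest for Gngt1. The log2 fold change was -2.10 ± 0.20 (adjusted p = 0.000783). Pde6g lies on the minus strand of chromosome 11, from 120447605 to 120453500 in the authors' deposited table.

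In every rd10 library Pde6a stood higher relative to Pde6b, Gnb1 and Gnat1 than in any WT library, although no ratio passed its test. Pde6a and Pde6b encode partners in the same catalytic dimer. There were 1.84, 1.83 and 1.65 Pde6a counts per Pde6b count in rd10, against 1.33, 1.24 and 1.37 in WT. The log2 ratio, rd10 minus WT, differed by 0.43 ± 0.07 (SE). The ratio of Pde6a to Gnb1 was 0.614, 0.648 and 0.662 in rd10, against 0.480, 0.451 and 0.485 in WT, a log2 difference of 0.44 ± 0.05. That of Pde6a to Gnat1 was 0.239, 0.217 and 0.238 in rd10, against 0.148, 0.167 and 0.184 in WT, a log2 difference of 0.48 ± 0.10. These 3 were the pairs, of 15, whose groups did not overlap. Each had an exact two-sided permutation p of 0.1, the smallest possible, and 0.429 after adjustment over the 15 pairs, so no single ratio passed. Counts per count carry the lengths of both genes, and only their change between groups is read here.

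**Figure D2:**
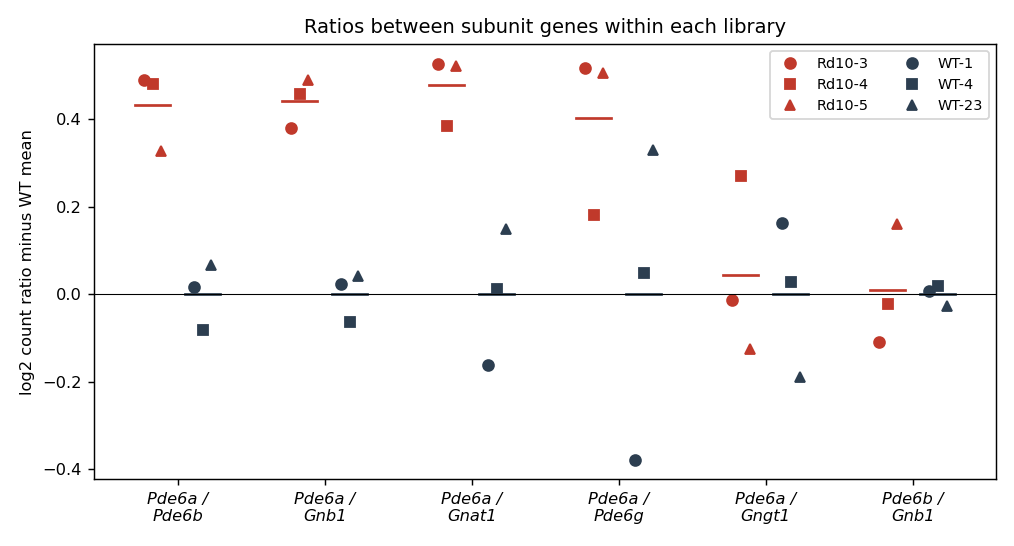
Log2 ratio of the counts of 2 subunit genes within each library, minus the WT mean of that ratio, rd10 left and WT right, with a bar at each group mean. Pde6a relative to Pde6b, Gnb1 and Gnat1 is higher in all 3 rd10 libraries, while the ratios of Pde6a to Gngt1 and of Pde6b to Gnb1 overlap.

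Among the other pairs, Gngt1 stood higher in rd10 relative to Pde6b by 0.39 ± 0.16, to Gnb1 by 0.40 ± 0.17 and to Gnat1 by 0.43 ± 0.25 in log2, with overlapping groups. Pde6a relative to Gngt1 differed by 0.04 ± 0.16. Between Gnat1, Gnb1, Pde6b and Pde6g the 6 log2 differences lay between -0.03 and 0.08. For Pde6b relative to Gnb1 it was 0.01 ± 0.08, and for Pde6b relative to Pde6g it was -0.03 ± 0.24, a pair far less tightly measured.

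Part of the spread inside groups moved with the base composition of the transcripts. Gngt1 has the lowest GC content of the 6, 35.8%, and Pde6g the highest, 55.8%; Pde6a and Pde6b are nearly alike at 49.3% and 49.7%. In WT-1, Gngt1 was 0.23 below and Pde6g 0.31 above its WT mean in log2 CPM. In WT-23 the order turned over, with Gngt1 0.23 above and Pde6g 0.29 below. Rd10-4 resembled WT-1, with Gngt1 0.35 below and Pde6g 0.09 above its rd10 mean. In Rd10-5 all 6 genes stood above their rd10 means, by 0.24 for Pde6g up to 0.51 for Gngt1. After a smooth trend with transcript GC content was removed from each library, 8 pairs had groups that did not overlap: Pde6a and Gngt1 each relative to Gnat1, Gnb1, Pde6b and Pde6g. Pde6a relative to Pde6b was then higher in rd10 by 0.44 ± 0.07, Pde6a relative to Pde6g by 0.48 ± 0.03, Gngt1 relative to Pde6g by 0.53 ± 0.05 and Gngt1 relative to Gnat1 by 0.59 ± 0.10. Each p was again at its floor of 0.1. The number of such pairs was also 7 without WT-23 and 8 without Rd10-4, and 3 or 4 without any other library.

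**Figure D3:**
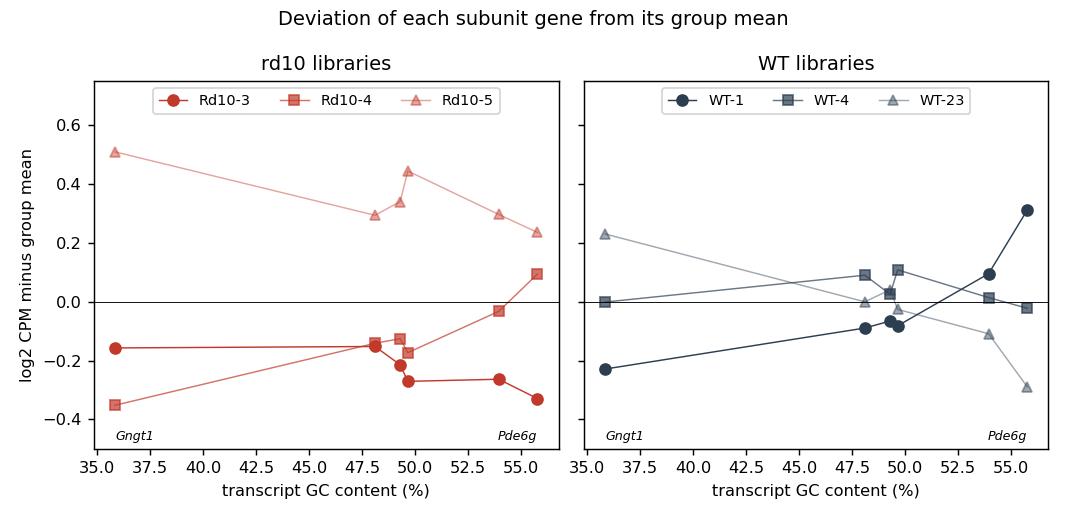
Deviation of each subunit gene from its group mean (log2 CPM) against transcript GC content in percent, rd10 libraries left and WT libraries right, with 1 line per library. WT-1 and WT-23 slope in opposite directions, and Rd10-5 lies above 0 at all 6 genes.

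Relative to 8 other rod genes, Pde6a stood higher in rd10 by a margin close to the threshold, and the other 5 subunits did not pass the test. The rod list held Nrl and Nr2e3 (rod transcription factors), Cnga1 and Cngb1 (the cGMP-gated channel), Slc24a1 (the rod sodium, calcium and potassium exchanger), Reep6, Gucy2f and Esrrb. All 8 fell, with a median log2 fold change of -2.29. On the log2 scale, Nrl fell by 2.54 ± 0.21, Slc24a1 fell by 2.34 ± 0.22 and Cngb1 fell by 2.26 ± 0.17. When the libraries were scaled to the summed counts of this list, Pde6a was higher in rd10 by 0.59 ± 0.28 (SE; edgeR, adjusted p = 0.0379). Gngt1 had nearly the same value and did not pass, at 0.54 ± 0.28 (adjusted p = 0.054). The remaining members lay closer to 0, with 0.11 ± 0.28 for Gnat1 (adjusted p = 0.692), 0.15 ± 0.28 for Gnb1 (0.6), 0.16 ± 0.28 for Pde6b (0.582) and 0.18 ± 0.28 for Pde6g (0.529). This scaling moves nearly every gene that is not a rod gene upward by its construction. Under it 98.9% of tested genes were called, so the adjustment left the members' p-values almost unchanged. Not passing at an SE of 0.28 does not show that a member fell as far as the rod list.

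Whether Pde6a passed relative to the rod list depended on which libraries were kept and on how the list was summed. The call was lost without WT-1 (0.54 ± 0.35, adjusted p = 0.125), WT-4 (0.62 ± 0.38, 0.105) or WT-23 (0.61 ± 0.36, 0.0868). It was also lost without Rd10-3 (0.54 ± 0.28, 0.0506) or Rd10-4 (0.61 ± 0.35, 0.0862), and with the list's geometric mean (0.53 ± 0.28, adjusted p = 0.0611). Over these settings the estimate stayed between 0.53 and 0.62. Without Rd10-5 both Pde6a (0.62 ± 0.17, adjusted p = 0.00301) and Gngt1 (0.49 ± 0.21, adjusted p = 0.0344) were called. Both were also called by limma voom and with the GC trend removed, a setting added to the rod scaling after seeing the data.

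**Figure D4:**
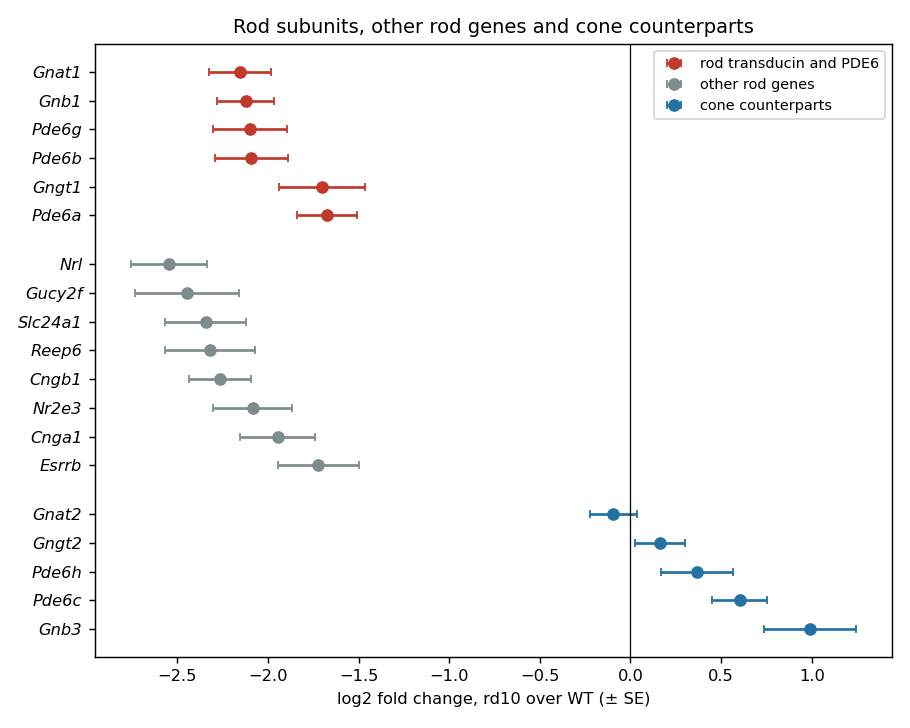
Log2 fold change, rd10 over WT, with its standard error, for the 6 subunit genes, 8 other rod genes and 5 cone counterparts, sorted within each set. The rod subunits lie between -2.15 and -1.67, with Gngt1 and Pde6a just above the highest of the other rod genes, Esrrb at -1.72, and the cone counterparts lie near 0 or above.

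No cone counterpart was called lower under the scalings tried. Gnat2, the cone transducin alpha gene, had 270, 290 and 288 CPM in rd10, against 301, 347 and 258 CPM in WT. Its groups overlapped, with a log2 fold change of -0.096 ± 0.13 (edgeR, adjusted p = 0.666), and the direction turned without WT-4 (0.035) and with no scaling beyond library size (0.14). With inner neuron scaling it was -0.39 ± 0.15 (adjusted p = 0.0761). Gngt2, the cone gamma gene, averaged 128 ± 10 CPM in rd10 and 115 ± 16 CPM in WT (log2 fold change 0.16 ± 0.14, adjusted p = 0.466; -0.12 ± 0.13 when libraries were scaled to bipolar, amacrine and ganglion cell genes). Pde6h, the cone inhibitory subunit, averaged 240 ± 40 CPM in rd10 and 186 ± 46 CPM in WT (0.37 ± 0.20, adjusted p = 0.252), and passed without WT-1 (0.57 ± 0.16, adjusted p = 0.0327). Its log2 fold change was 0.088 ± 0.17 with inner neuron scaling (adjusted p = 0.724), 0.24 without WT-23 and 0.23 without Rd10-4.

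Gnb3 and Pde6c rose. Gnb3 had 575, 740 and 573 CPM in rd10, against 415, 337 and 198 CPM in WT, a log2 fold change of 0.99 ± 0.25 (edgeR, adjusted p = 0.0368). Pde6c had 227, 189 and 186 CPM in rd10, against 127, 157 and 112 CPM in WT, a log2 fold change of 0.60 ± 0.15 (adjusted p = 0.0361). Under the main settings both calls lay close to the threshold. With the GC trend removed, Gnb3 was at 0.96 ± 0.12 (edgeR, adjusted p = 0.000107) and Pde6c at 0.63 ± 0.14 (0.00573). By DESeq2 the adjusted p was 0.000965 for Gnb3 and 0.0058 for Pde6c. That of Gnb3 was lost without WT-4 (adjusted p = 0.103), Rd10-3 (0.0963), Rd10-4 (0.106) or Rd10-5 (0.0698). That of Pde6c was lost without WT-23 (adjusted p = 0.0654), Rd10-3 (0.161), Rd10-4 (0.0713) or Rd10-5 (0.0709), and when libraries were scaled to bipolar, amacrine and ganglion cell genes (0.183). Bipolar cell markers moved with Gnb3: 5 of 12 rose and none fell (9 rose with library size alone, 0 when scaled to lists that include them), and their summed share was 0.261% to 0.278% of counts in rd10 and 0.174% to 0.194% in WT. Their part in the Gnb3 difference was not tested.

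Within each library, every rod gene stood lower relative to its cone counterpart in rd10. There were 17.5, 19.1 and 24.1 Gnat1 counts per Gnat2 count in rd10, against 90.4, 74.2 and 91.6 in WT, a log2 difference of -2.08 ± 0.17 (SE). The Gnb1 to Gnb3 ratio showed the widest gap, with 3.19, 2.50 and 4.37 in rd10, against 20.3, 28.4 and 45.3 in WT, a log2 difference of -3.18 ± 0.41. Pde6b stood at 2.69, 3.47 and 5.42 counts per Pde6c count in rd10, against 24.0, 22.1 and 28.2 in WT. The log2 differences were -1.91 ± 0.41 for Gngt1 to Gngt2, -2.30 ± 0.28 for Pde6a to Pde6c, -2.74 ± 0.31 for Pde6b to Pde6c and -2.48 ± 0.23 for Pde6g to Pde6h. All 6 ratios had groups that did not overlap, each at the smallest exact two-sided permutation p of 0.1, which is also its value adjusted over the 6 pairs. Such ratios need no scaling between libraries, but no GC trend was removed from them. GC content was 48.1% for Gnb1 and 56.9% for Gnb3, and 35.8% for Gngt1 and 52.5% for Gngt2. In WT-1, WT-4 and WT-23 the Gngt1 to Gngt2 ratio was 8.04, 10.7 and 14.7, and the Gnb1 to Gnb3 ratio rose in the same order. That of Pde6g (55.8%) to Pde6h (46.2%) was 16.7, 17.6 and 17.8. The part of GC content in these ratios was not tested.

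Levels of different subunits can be set side by side only per length. As RPKM, which divides TMM-scaled CPM by the kilobases of merged exons in GENCODE M21, Gnat1 stood at 1893 ± 374 in rd10 and 8429 ± 595 in WT, Gnb1 at 483 ± 89 in rd10 and 2103 ± 131 in WT, and Pde6g at 324 ± 63 in rd10 and 1384 ± 291 in WT. Pde6a followed at 283 ± 61 in rd10 and 903 ± 36 in WT, then Pde6b at 151 ± 43 in rd10 and 642 ± 44 in WT and Gngt1 at 109 ± 36 in rd10 and 354 ± 56 in WT. In rd10 the neighbours Pde6g and Pde6a, and Pde6b and Gngt1, lay within their spread. The order rests on the length used. By the longest coding transcript, a length chosen after seeing the data, Gngt1 was at 323 ± 107 in rd10 and 1051 ± 167 in WT, above Pde6a at 289 ± 62 in rd10 and 923 ± 36 in WT. In the authors' deposited table, Gngt1 was given at 415.8 FPKM in rd10 and 1353.8 in WT, above Pde6g at 253.1 in rd10 and 1083.5 in WT. Gnat1 came first under all 3 measures, at 946.8 FPKM in rd10 and 4219.5 in WT in the authors' deposited table.

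Genes that process, carry or regulate the subunits also fell, by less. Of 13 tested partner genes, 8 fell and none rose (7 to 10 fell over the other scalings); their median log2 fold change was -0.77, against -0.037 over all tested genes. Arl3, a GTPase that releases lipidated cargo in photoreceptors, fell by 1.07 ± 0.12 on the log2 scale (edgeR, adjusted p = 0.00117). Icmt, which methylates prenylated proteins such as the gamma subunit, fell by 0.96 ± 0.12, and Unc119, a carrier of the acylated transducin alpha subunit, fell by 1.53 ± 0.19. The 5 that did not pass were Unc119b, Rp2h, Rce1, Nmt1 and Nmt2.

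The 6 genes that shut the response off or regulate its shut-off all fell, with a median log2 fold change of -1.28. Rgs9bp, which anchors the complex that speeds GTP hydrolysis by transducin, fell by 1.83 ± 0.22 on the log2 scale. Gnb5, the G beta partner of RGS9 in that complex, fell by 1.08 ± 0.14, and Grk1, a photoreceptor kinase that begins the shut-off, fell by 1.49 ± 0.18. All 7 genes of guanylate cyclase, its calcium sensors, the cGMP-gated channel and the exchanger fell, with a median of -2.26. Among them were Guca1b, a calcium sensor of guanylate cyclase, which fell by 2.36 ± 0.21, and Gucy2e, a photoreceptor guanylate cyclase, which fell by 1.46 ± 0.13. Cnga1, Cngb1, Slc24a1 and Gucy2f are in this list and in the rod list. Of 8 photoreceptor transcription factors, 6 fell and 2 (Otx2 and Neurod1) did not pass; 5 to 8 fell over the other scalings. Crx, shared by rods and cones, fell by 1.24 ± 0.14, and Nr2e3 fell by 2.08 ± 0.22. Nrl, Nr2e3 and Esrrb are in this list and in the rod list.

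Of 48 tested relatives of the subunits, 8 rose and 6 fell, 29.2% in all, beside 14.4% of all tested genes. The 48 include the cone counterparts Gnb3, Gngt2, Pde6c and Pde6h, the shut-off gene Gnb5, the partner gene Pde6d and the bipolar marker Gng13. Of 13 other G alpha genes tested, Gna14 and Gna15 rose and Gnaz fell, with a median of 0.20 that became -0.09 under the same inner neuron scaling described for Gngt2. Gna14, a Gq-class alpha subunit, averaged 19.9 ± 0.39 CPM in rd10 and 4.35 ± 1.3 CPM in WT, a log2 fold change of 2.19 ± 0.22 (edgeR, adjusted p = 0.000803). Gnaz, an alpha subunit of the Gi class, had a log2 fold change of -1.16 ± 0.26. The call of Gna15 rests on few counts, 11, 10 and 10 in rd10 and 2, 1 and 4 in WT. Of the 4 other G beta genes, Gnb3 rose and Gnb5 fell. Of 10 other G gamma genes tested, Gng7, Gng10 and Gng12 rose, by 0.68 to 0.85 on the log2 scale, and none fell; scaled to bipolar, amacrine and ganglion cell genes, none of the 10 was called (adjusted p from 0.0545 to 0.117 for these 3).

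Of 21 other phosphodiesterase genes tested, 2 rose and 4 fell, with a median of 0.15; with that inner neuron scaling 0 rose and 4 fell, with a median of -0.14, and with library size alone 7 rose and 3 fell. Pde6d, which despite its name is a carrier of prenylated proteins and no catalytic subunit, fell by 0.77 ± 0.11 on the log2 scale (edgeR, adjusted p = 0.00348). Pde8a, a cAMP phosphodiesterase, fell by 0.84 ± 0.16, and Pde8b fell by 0.59 ± 0.10. The fourth that fell was Pde12, a 2',5'-phosphodiesterase, and the 2 that rose were Pde6c and Pde3b. In WT, Pde6a ranked 13 in mean CPM among all genes of the table, while the cone gene Pde6c ranked 1672.

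The genes whose levels followed the subunits most closely over the 6 libraries were Pex5l, Nrl, Sec22a, LOC102308570 and Dnajc6, with Pearson correlations of 0.999 each with the mean centred log2 CPM of the 6 members, among 10985 genes that averaged 5 CPM or more. With 2 groups that lie far apart, such values mostly record the step between them. Pex5l averaged 88.7 ± 16 CPM in rd10 and 278 ± 9.2 CPM in WT. Dnajc6 had a log2 fold change of only -0.19 ± 0.09 and was not called (edgeR, adjusted p = 0.225). On deviations from the group means, where the step is gone, the closest were Sec22a (0.996), Rabl2 (0.996), LOC102308570 (0.993), Acad9 (0.992) and Kansl2 (0.986), over the same 6 libraries. In Rd10-5 all 6 members stood above their rd10 means, by 0.24 to 0.51, so that library weighs heavily in these correlations. The genes named are also the highest of 10985. These values are descriptions and carry no test.

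Library totals ran from 10923556 to 12171088 counts in rd10 and from 13573035 to 15818918 in WT, and the 10 most abundant genes took 5.81% to 6.48% of counts in rd10 and 11.1% to 12.7% in WT. Markers of some other retinal cells moved with the groups. All 9 microglial markers rose, their summed share being 0.0242% to 0.0344% of counts in rd10 and 0.00604% to 0.00786% in WT. Of 9 Müller glial markers 7 rose (4 with inner neuron scaling), with 1.36% to 1.67% in rd10 and 0.753% to 0.826% in WT. Of 10 ganglion cell markers 1 rose, and of 11 amacrine and 5 horizontal cell markers none was called (with library size alone, 4 ganglion and 6 amacrine cell markers rose); their shares were 0.210% to 0.222%, 0.233% to 0.258% and 0.0358% to 0.0376% in rd10, and 0.147% to 0.167%, 0.163% to 0.183% and 0.0343% to 0.0367% in WT. Of 7 tested pigment epithelium markers 3 fell, the share of all 8 being 0.0245% to 0.0402% in rd10 and 0.0324% to 0.0350% in WT. None of 3 tested lens markers was called, and the share of all 6 was 0.000999% to 0.00208% in rd10 and 0.000184% to 0.00133% in WT. No marker of these lists was at 0 in all libraries. The ribosomal RNA precursor Rn45s took 1.04% to 1.08% of counts in rd10 and 0.666% to 0.689% in WT. The part of these differences in the subunit results was not tested. The 6 members fell under all 16 alternatives tried, scaling to bipolar, amacrine and ganglion cell genes included, with log2 fold changes between -2.44 and -1.44.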

How the data were processed

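Libraries kept strand information and used 1 µg of total RNA each, per the labels' protocols. The submitters' processing notes name mm10, TopHat2 2.1.0, HTSeq and edgeR; the sources used here give neither the annotation nor whether counting used strand. Raw gene counts of 6 libraries were deposited. A further table deposited by the authors gives 1 FPKM per group, a log2 fold change and a p-value for each gene. Column names show the genotype but not which titled replicate a library is, so libraries keep those names. The labels do not say that samples came from separate animals, and p-values measure only the spread between these samples.

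Of 24062 genes, 5857 were at 0 throughout and 13905 passed filterByExpr, all 6 members among them. Counts were tested with edgeR 4.0.16 in R 4.3.3 (TMM, robust quasi-likelihood fit, Benjamini-Hochberg adjustment over all tested genes, threshold 0.05); SE of a log2 fold change is its size over the root of F. Pairs of libraries within a group had a chi-square per degree of freedom of 7.364 to 57.81, more than sampling noise gives. The rod-scaled comparison replaced TMM by the summed counts of 8 rod genes; 1 further gene of that list is not reported here and was left out of it. Ratios within libraries were compared by exact two-sided permutation tests (scipy 1.17.1). Lengths and GC content came from GENCODE M21, to which 98.354% of genes matched. Correlations used log2 CPM with a prior count of 2. Named genes are the members, the cone counterparts, the genes most like the members, and up to 3 called genes per list by smallest p. Others complete a count or a range. The members and the 19 gene lists were chosen with earlier results of these data known. On simulated data with 13905 genes for rd10 against WT, calls were made for 10.71% of the 56 genes altered 1.5-fold, for 56.52% of the 69 altered 2-fold and for 95.89% of the 73 altered 4-fold. Only 200 genes were altered there, against 2008 called in the data, so these rates belong to the simulated setting. Alternatives were DESeq2 1.42.0, limma voom (limma 3.58.1), other scalings and filters, removal of a GC trend, and leaving out libraries.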

Additional observations from a re-analysis of the deposited data

How the results depend on the processing

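All 6 members kept their direction and their call under all 16 alternatives, with a largest adjusted p of 0.0214. The number of genes called, 2008, was 3037 with library size alone, 3913 with inner neuron scaling, 4955 with the GC trend removed, 3225 without both WT-1 and Rd10-5 (chosen after seeing the data) and 885 to 3214 with 1 library left out. Over all genes the median log2 fold change, -0.037, became 0.20 under library size alone and -0.33 under inner neuron scaling, and the share of calls that were higher in rd10, 49.3%, became 81.2% and 15.7% there and 63.3% under upper quartile factors. Of the members, 1 was called relative to rod genes, 0 with the list's geometric mean, 2 by limma voom, 2 with the GC trend removed (added after seeing the data) and 0 to 2 with 1 library left out; a shorter rod list planned as an alternative was not run. Pairs of members that did not overlap numbered 3, 8 with the GC trend removed and 3 to 8 with 1 library left out. Small values changed sign: Gnat2 to 0.14 with library size alone, and between -0.18 and 0.035 with 1 library left out; Gngt2 to -0.12 with inner neuron scaling, where Gnat2 was -0.39 (adjusted p = 0.0761). Removal of the GC trend brought the log2 differences to -0.052 for Pde6a to Gngt1, 0.039 for Pde6b to Pde6g, -0.011 for Pde6b to Gnb1 and -0.049 for Pde6g to Gnb1. With 1 library left out, they ran from -0.069 to 0.13 for Pde6a to Gngt1, -0.23 to 0.10 for Pde6b to Pde6g, -0.065 to 0.069 for Pde6b to Gnb1, -0.044 to 0.12 for Pde6b to Gnat1, -0.10 to 0.24 for Pde6g to Gnb1, -0.015 to 0.18 for Pde6g to Gnat1 and -0.057 to 0.089 for Gnb1 to Gnat1. The members' share of counts differed by -3.58 percentage points with the 10 most abundant genes left out of the total alone, and by -0.48 with them left out of the members' sum too (chosen after seeing the data), which removes other members in WT than in rd10. The cause of the other changes was not tested. No paired analysis was possible because the column names do not say which titled replicate a library is, and the rd10 and WT columns share fewer than 2 numbers. With 3 libraries per group, no permutation p can fall under 0.1.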
